A study of Mus musculus with 27 samples.

Results

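Trimethylation of histone H3 at lysine 4 (H3K4me3) was compared at gene promoters between pre-iPSCs, mouse cells halted between fibroblast and induced pluripotent stem cell (iPSC), and the mouse embryonic fibroblasts (MEFs) they were made from. The comparison used the 4 H3K4me3 libraries of these 2 cell types, of 27 samples in all. A promoter was the 2001 bp centred on the transcription start site (TSS) of a gene in the deposited expression tables, which gave 20156 promoters. The reads of every called nucleosome whose centre fell in the window were summed, and 17698 promoters held enough reads to be tested.

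The MEFs came from e13.5 embryos, of mid-gestation, hemizygous for an Oct4-GFP transgene and a Rosa26 allele. Their labelled background is CBA/CaJ and C57BL/6J, and the methods add a 129Sv/Jae mother. Labels of the replicate 2 libraries, titled as repeats, give no background. Pre-iPSCs were derived from such MEFs with retroviruses carrying the 4 Yamanaka factors and were grown on inactivated MEF feeders with serum and LIF, so feeder chromatin can be present in them. The study used 2 stable pre-iPSC clones, and the clone of a library is not given in the sources used here. Nuclei of MEFs received more micrococcal nuclease for a shorter time than those of pre-iPSCs, so the digestion and the cell type cannot be told apart. The 6 H3K4me3 libraries of MEFs, pre-iPSCs and iPSCs shared 1 estimate of the spread between replicates.

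H3K4me3 is laid down around the start sites of genes by the COMPASS family of methyltransferases. It marks nucleosomes beside active promoters, where the first nucleosome downstream of the TSS usually carries the most. Promoters rich in CpG dinucleotides tend to hold the mark even when their gene is little transcribed, since CpG-binding proteins bring the enzymes there. CpG-poor promoters, typical of tissue-specific genes, gain it largely with activation. In reprogramming, fibroblast genes are shut down and genes of pluripotency and of epithelium are switched on, and a pre-iPSC is known as a cell in which this second step is incomplete.

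The sequences just upstream of some start sites are given as examples of promoters that changed, and do not stand for all called promoters. Each line below gives the 250 bases before the TSS on the gene's strand in mm9, with CpG dinucleotides in capitals. F2, Klk1, Pou5f1 and Dscaml1 are the 4 largest rises, and Spp1, Ogn and Gucy1a3 the 3 largest falls, whose stretch overlaps no annotated exon. Rpl8, a ribosomal protein gene whose mark was not called as changed, is shown for contrast.
F2, chr2:91476572-91476821, minus strand: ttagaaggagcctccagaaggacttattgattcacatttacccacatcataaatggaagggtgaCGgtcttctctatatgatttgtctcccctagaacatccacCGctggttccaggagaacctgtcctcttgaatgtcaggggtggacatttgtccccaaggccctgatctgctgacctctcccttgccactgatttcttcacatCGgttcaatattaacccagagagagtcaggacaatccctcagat
Klk1, chr7:51480557-51480806, plus strand: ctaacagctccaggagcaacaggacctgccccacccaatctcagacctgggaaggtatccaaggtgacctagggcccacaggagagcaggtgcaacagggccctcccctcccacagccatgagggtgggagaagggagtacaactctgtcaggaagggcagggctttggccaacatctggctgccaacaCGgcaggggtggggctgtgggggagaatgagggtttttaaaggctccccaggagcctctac
Pou5f1, chr17:35642727-35642976, plus strand: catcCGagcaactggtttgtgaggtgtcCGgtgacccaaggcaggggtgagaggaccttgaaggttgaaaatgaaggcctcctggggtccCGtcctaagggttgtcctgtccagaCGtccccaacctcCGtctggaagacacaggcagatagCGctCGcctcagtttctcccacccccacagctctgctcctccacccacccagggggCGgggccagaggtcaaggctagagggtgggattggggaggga
Dscaml1, chr9:45238126-45238375, plus strand: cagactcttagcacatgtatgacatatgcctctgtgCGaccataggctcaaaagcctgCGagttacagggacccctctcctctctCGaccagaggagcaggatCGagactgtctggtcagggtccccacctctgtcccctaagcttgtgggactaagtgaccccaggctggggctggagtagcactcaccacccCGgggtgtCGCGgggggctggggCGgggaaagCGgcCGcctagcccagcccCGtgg
Spp1, chr5:104864961-104865210, plus strand: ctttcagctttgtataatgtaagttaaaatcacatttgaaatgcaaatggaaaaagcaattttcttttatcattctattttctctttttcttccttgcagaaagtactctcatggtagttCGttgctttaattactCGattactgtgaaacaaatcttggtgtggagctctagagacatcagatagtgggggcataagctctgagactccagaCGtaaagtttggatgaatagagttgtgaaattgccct
Ogn, chr13:49703190-49703439, plus strand: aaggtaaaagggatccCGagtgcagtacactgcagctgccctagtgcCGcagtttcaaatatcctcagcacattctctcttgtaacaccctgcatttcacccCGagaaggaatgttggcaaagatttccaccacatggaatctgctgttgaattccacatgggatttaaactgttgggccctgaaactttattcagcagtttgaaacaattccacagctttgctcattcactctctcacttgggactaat
Gucy1a3, chr3:81949800-81950049, minus strand: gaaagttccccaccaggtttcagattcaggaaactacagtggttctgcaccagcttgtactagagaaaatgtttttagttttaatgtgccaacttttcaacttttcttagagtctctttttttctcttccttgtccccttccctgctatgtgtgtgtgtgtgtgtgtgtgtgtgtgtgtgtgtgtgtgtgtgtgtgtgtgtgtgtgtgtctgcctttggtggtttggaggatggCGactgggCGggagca
Rpl8, chr15:76734251-76734500, plus strand: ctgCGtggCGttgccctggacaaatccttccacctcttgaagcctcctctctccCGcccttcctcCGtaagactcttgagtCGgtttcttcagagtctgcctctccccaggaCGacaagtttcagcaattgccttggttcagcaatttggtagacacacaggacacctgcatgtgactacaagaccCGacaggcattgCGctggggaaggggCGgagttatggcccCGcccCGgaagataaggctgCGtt
These stretches held 3 CpG at F2, 1 CpG at Klk1, 8 CpG at Pou5f1, 11 CpG at Dscaml1, 3 CpG at Spp1, 3 CpG at Ogn, 2 CpG at Gucy1a3 and 12 CpG at Rpl8. By the GENCODE annotation of the same build, the stretch of Klk1 lies within an intron of Gm10109, that of Ogn within an intron of Cenpp, that of Dscaml1 within introns of 4833428L15Rik and of a longer Dscaml1 transcript, and that of Spp1 within introns of longer Spp1 transcripts, while the others overlap no gene. The 4 promoters with a rise differed widely in CpG content, and the 3 with a fall were poor in CpG.

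H3K4me3 rose at 543 promoters and fell at 74 in pre-iPSCs, of the 17698 tested. Pluripotency genes had 11 of their 40 promoters among the rises, and fibroblast matrix and surface genes had 7 of their 38 among the falls. Of all 617 called promoters 52 belonged to any of the 19 gene lists described here, so most calls lay outside them. The share of all tested promoters held by these lists was not counted, so the 52 do not show whether the lists were called more often. The rises were 3.07% and the falls 0.418% of the promoters tested, by edgeR's quasi-likelihood test, with 2-fold and an adjusted p of 0.05 as limits. Levels are normalised reads in counts per 1000000 reads of promoter windows (CPM, TMM scaling), in which 1 CPM was between 0.492 and 0.708 reads. At the 543 rising promoters the median level was 15.5 and 19.7 CPM in MEF replicates 1 and 2 and 49.9 and 52.9 CPM in pre-iPSC replicates 1 and 2. The 74 falling promoters went from medians of 81.2 and 69.1 CPM to 30.3 and 35.6 CPM. Typical promoters held 59.3 and 55.9 CPM in MEFs and 55.2 and 56.9 CPM in pre-iPSCs. The rises thus began from little mark and ended near the level of a typical promoter, and the falls ran from above that level to below it.

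The split between rises and falls depended on the scaling. TMM over promoters sets the median change of tested promoters to -0.01 (log2). Scaled instead so that 10-kb bins of the whole genome were centred, the median promoter changed by -0.35, and 179 promoters (1.01%) rose while 437 (2.48%) fell. Promoter windows took 6.03% and 4.82% of the reads in calls of the MEF libraries and 4.24% and 3.92% of those of the pre-iPSC libraries. A smaller share of reads thus lay at promoters in both pre-iPSC libraries, and the 2 MEF libraries differed as well. The mark, the enrichment and the digestion cannot be told apart in these shares. The 2 scalings shared 179 rises and all 74 falls. Rises named below also passed the scaling by bins unless stated otherwise, and the falls named all did.

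**Figure D1:**
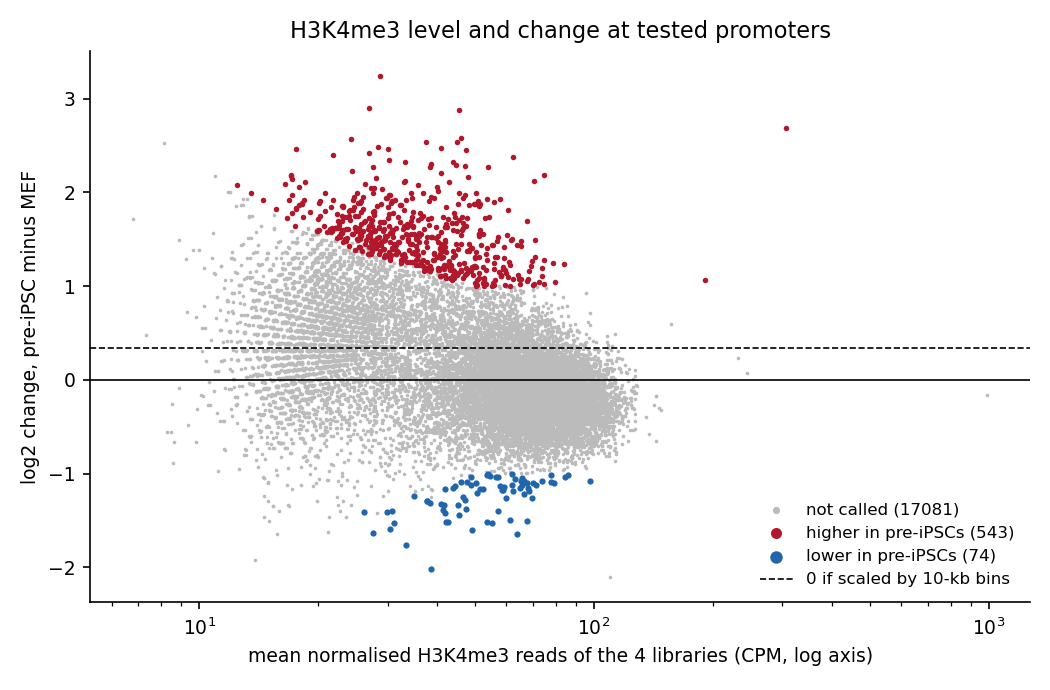
Each point is 1 of 17698 tested promoters, with its mean normalised H3K4me3 level over the 4 libraries (CPM, log axis) against its log2 change, pre-iPSC minus MEF. Red points are the 543 called higher and blue points the 74 called lower, and the dashed line shows where 0 lies if 10-kb bins are used for scaling, as their median promoter changed by -0.35.

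The calls were unevenly spread over the levels of the mark. Of the 4425 promoters with the least H3K4me3, between 6.81 and 30.6 CPM on average over the 4 libraries, 210 rose and 4 fell. Of the next 4424, up to 58.3 CPM, 287 rose and 40 fell, and of the following 4424, up to 75.2 CPM, 41 rose and 24 fell. Among the 4425 with the most, 5 rose and 6 fell. The median change drifted with level, from 0.50 among the weakest to -0.20 among the strongest of these 4 classes (log2). With the scaling by bins the classes from weakest to strongest had 64, 102, 12 and 1 rises and 40, 119, 151 and 125 falls (a few of the 437 falls were not tested with the first scaling), so that falls outnumbered rises in all but the weakest, and the medians ran from 0.18 to -0.54. The level is a mean over both cell types and the tests share its reads, so these counts are a description.

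The prothrombin gene F2, a liver gene of blood clotting whose TSS lies at position 91476571 of chromosome 2 on the minus strand, had the largest rise. Its H3K4me3 was 5.65 and 4.94 CPM in MEFs and 51.6 and 52.9 CPM in pre-iPSCs, a log2 change of 3.24 (SE 0.48; adjusted p = 1.7e-05, edgeR). The 2 pre-iPSC libraries were nearly equal and lay far above both MEF libraries, yet the F2 transcript stayed at or below 0.04 FPKM in all 4 RNA libraries. Klk1, a tissue kallikrein (TSS 51480807 on chromosome 7, plus strand), rose from 2.82 and 9.87 CPM to 32.1 and 63.0 CPM, a log2 change of 2.90 (SE 0.51; adjusted p = 0.00026, edgeR). In contrast with F2, its transcript went from 0 and 0.421 FPKM to 585 and 1178 FPKM.

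Dok2, an adaptor of tyrosine kinase signalling in blood cells, rose from 9.88 and 11.5 CPM to 69.4 and 91.5 CPM. Igfals, which encodes the acid-labile subunit of the circulating IGF complex, rose from 11.3 and 14.8 CPM to 64.1 and 93.6 CPM. The keratin gene Krt17 of basal epithelium went from 7.06 and 6.58 CPM to 44.5 and 38.6 CPM. All of these were also called higher in expression, with Krt17 at 0 in both MEF RNA libraries and at 97.1 and 15.3 FPKM in pre-iPSCs. Among the other large rises, Plekha6 rose in expression too, from 0.597 and 0.21 FPKM to 23.5 and 20.9 FPKM. Dscaml1, a neuronal adhesion gene, Ajap1, which encodes an adherens junction associated protein, and the kallikrein Klk15 gained the mark with log2 changes of 2.54, 2.53 and 2.48. The MEF libraries differed at Ajap1, with 2.82 and 19.7 CPM, and its change was 1.66 without MEF replicate 1 and 4.37 without MEF replicate 2. The transcripts of these 3 genes were at or below 0.301 FPKM in every library.

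**Figure D2:**
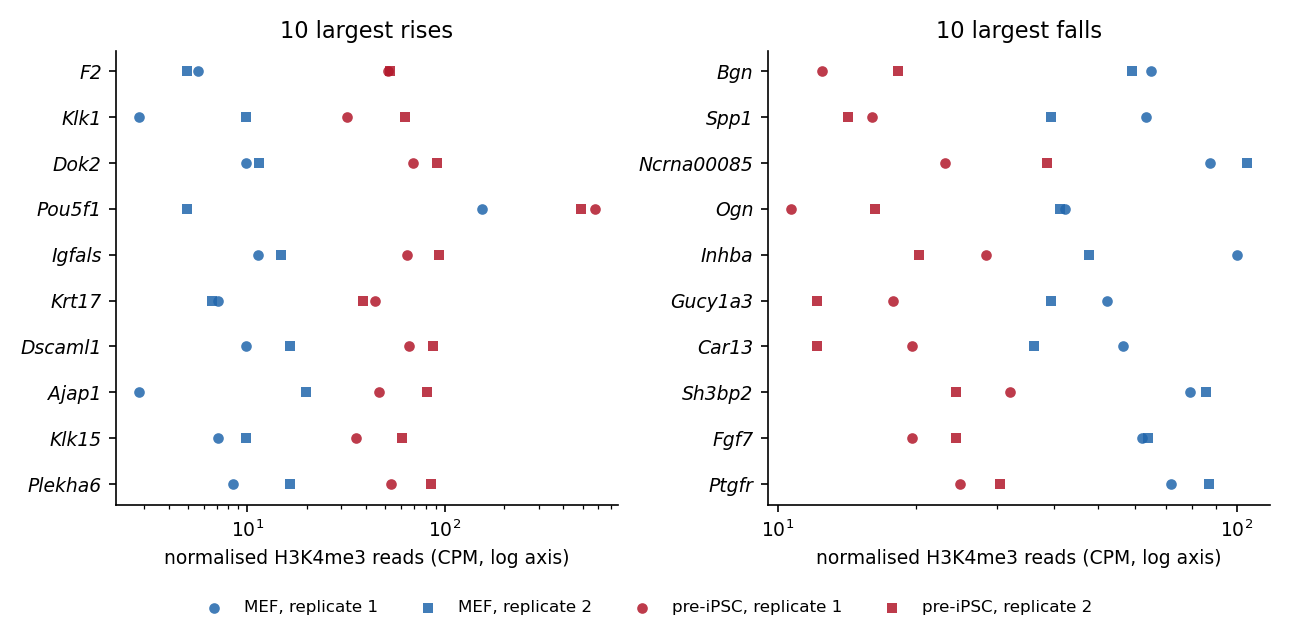
Normalised H3K4me3 (CPM, log axis) in each MEF (blue) and pre-iPSC (red) library at the 10 promoters with the largest rises (left) and the 10 with the largest falls (right); circles are replicate 1 and squares replicate 2. The promoters were chosen among those whose groups do not overlap, and Pou5f1 is the promoter at which the 2 MEF libraries lie farthest apart, at 155 and 4.94 CPM.

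Pou5f1, which encodes the pluripotency factor Oct4, reached the highest level of the named promoters, and its 2 MEF libraries disagreed. H3K4me3 there was 155 and 4.94 CPM in MEFs and 579 and 490 CPM in pre-iPSCs (log2 change 2.68, SE 0.49; adjusted p = 0.000376, edgeR). The change was 6.69 without MEF replicate 1 and 1.77 without MEF replicate 2. Histone H3 itself was 666 and 72.9 CPM in MEFs and 952 and 726 CPM in pre-iPSCs, per 1000000 H3 reads of promoter windows. H3K9me3, measured in 1 library of each cell type, was 83.3 CPM in MEFs and 1360 CPM in pre-iPSCs. H3K27me3 was 540 and 146 CPM in MEFs and 435 and 374 CPM in pre-iPSCs. MEF replicate 1 thus exceeded replicate 2 in H3K4me3, H3 and H3K27me3 alike at this window. The Oct4-GFP transgene and the retroviral Pou5f1 carry sequence of the gene, and their reads cannot be told apart from those of the endogenous locus in these files.

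The list of pluripotency genes had 11 of 40 promoters higher and 0 lower (background 3.07% and 0.418%), with a median change of 0.72 (log2) against -0.01 for all promoters tested. With the scaling by bins 6 were higher and the median was 0.38, against -0.35 for all. The 11 were Pou5f1, L1td1, Tdgf1, Sall4, Fgf4, Tcl1, Fbxo15, Gdf3, Tdh, Otx2 and Lin28a. Of these, Tcl1, Gdf3, Tdh, Otx2 and Lin28a were not called with the scaling by bins.

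L1td1, an RNA-binding protein gene of early embryo cells, rose from 21.2 and 13.2 CPM to 78.4 and 79.3 CPM. Tdgf1, the Nodal co-receptor Cripto, rose from 21.2 and 18.1 CPM to 60.5 and 77.3 CPM. Sall4, a zinc finger factor of the pluripotency network, rose from 29.7 and 19.7 CPM to 78.4 and 89.5 CPM. In these 3 genes the repressive mark H3K27me3 fell as H3K4me3 rose. H3K27me3 went from 113 and 105 CPM to 18.5 and 9.84 CPM at L1td1, from 129 and 105 to 9.25 and 19.7 CPM at Tdgf1, and from 160 and 130 to 27.8 and 24.6 CPM at Sall4. Their log2 changes in H3K27me3 were -2.87, -2.96 and -2.43, all called by the same test. Each was also called higher in expression, led by Tdgf1, which went from 0 and 0.083 FPKM to 228 and 333 FPKM. Of the 32 pluripotency promoters tested for H3K27me3 13 were lower and 1 higher, against 3.15% and 5.28% of all tested for that mark. Pou5f1, Tcl1, Fgf4 and Lin28a, which also gained H3K4me3, were not called in H3K27me3.

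Other genes of pluripotency were not called. Nanog, a core factor of the naive state, had 24.0 and 31.3 CPM in MEFs and 53.4 and 40.7 CPM in pre-iPSCs (log2 change 0.78; adjusted p = 0.195, edgeR), and its transcript was at most 0.519 FPKM. Zfp42, also called Rex1, was at 19.8 and 11.5 CPM against 21.4 and 26.4 CPM, and in iPSCs it was at 61.3 and 40.4 CPM. Dppa3, a gene of naive and germ cells, was at 9.88 and 26.3 CPM against 41.0 and 22.4 CPM, so its libraries overlapped. Tcfcp2l1, another naive factor, differed by 0.65 (log2; adjusted p = 0.175, edgeR) and Trap1a, a tumour rejection antigen gene on the X chromosome, by 0.39. Without MEF replicate 1 these differences were 0.36 and -0.08, without MEF replicate 2 that of Trap1a was 0.99, and without pre-iPSC replicate 2 they were 0.39 and 0.13. The 3 reprogramming factors beside Pou5f1 were not called either. Sox2 was at 48.0 and 42.8 CPM against 94.4 and 79.3 CPM, just short of 2-fold at a log2 change of 0.93 (adjusted p = 0.0484, edgeR), while Klf4 differed by -0.61 and Myc by 0.22. The expression tables do not part retroviral from endogenous transcripts of these 4 genes, which were all called higher in expression.

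Epithelial junction and polarity genes had 3 of 37 promoters higher and 0 lower, against 3.07% and 0.418% of all promoters, and the scaling by bins called 0 of them. Their median was 0.58 (log2) against -0.01 for all, or 0.26 against -0.35 with the scaling by bins. Spint1, an inhibitor of epithelial surface proteases, rose from 35.3 and 29.6 CPM to 103 and 56.9 CPM, a log2 change of 1.31 that was 0.80 without pre-iPSC replicate 1. Crb3, a polarity protein gene, rose from 39.5 and 41.1 CPM to 99.7 and 69.1 CPM, and Rab25, a GTPase of epithelial recycling, from 12.7 and 23 CPM to 42.7 and 56.9 CPM. The defining adhesion genes moved less. Cdh1, which encodes E-cadherin, was at 46.6 and 75.7 CPM against 85.5 and 95.6 CPM (log2 change 0.58; adjusted p = 0.199, edgeR), with a change of 0.25 without MEF replicate 1 and 0.94 without MEF replicate 2. Epcam was at 33.9 and 41.1 CPM against 49.9 and 46.8 CPM. Both genes were called higher in expression, with log2 changes of 3.79 and 3.96 on the scale of log2(FPKM + 1). In this list 19 of the 33 genes tested for expression were higher and 4 lower, against 7.39% and 9.0% of all genes tested.

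Among developmental regulators of other lineages the calls depended on the scaling. Of 47 neural and neural crest transcription factors 7 were higher and 0 lower, against 3.07% and 0.418% of all promoters. With the scaling by bins 1 was higher, against 1.01%. Their median was 0.32 (log2) against -0.01 for all, or -0.01 against -0.35 with the scaling by bins. Pax7, a factor of neural crest and muscle progenitors, rose most of them, from 21.2 and 31.3 CPM to 87.3 and 142 CPM, and it alone was also called with the scaling by bins. Neurog1, Neurog3, Olig2, Lhx3 and Emx1 also rose, with log2 changes between 1.03 and 1.33. The transcripts of Neurog1 and Neurog3 were listed at 0 in all 4 RNA libraries. Of 29 endoderm and mesendoderm genes 3 were higher, against 3.07% of all promoters, and 1 with the scaling by bins, against 1.01%. Their median was 0.32 (log2) against -0.01 for all, or -0.02 against -0.35 with the scaling by bins. Cdx2, a caudal factor of trophoblast and gut, was among the 3, at 19.8 and 18.1 CPM against 69.4 and 81.3 CPM. T, the mesoderm factor Brachyury, was another. The change of T, 1.07, was 0.63 without pre-iPSC replicate 1. Cdx2 was the only 1 of the 17 trophoblast genes tested that rose, and the only 1 of these 3 also called with the scaling by bins. Its transcript was listed at 0 in all 4 libraries.

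Hox genes, regulators of body axis position, had a median near that of the neural factors on both scalings. Hoxa2 was the only 1 of 39 called, against 3.07% of all promoters, and it was not called with the scaling by bins, which instead called Hoxb5 lower. Hoxa2 went from 65.0 and 37.8 CPM to 94.4 and 122 CPM. The median of the list was 0.36 (log2) against -0.01 for all, or 0.02 against -0.35 with the scaling by bins. When libraries were scaled to uniquely mapped reads it was -0.02 against -0.40. Of the 32 germline genes tested 4 were higher, against 3.07% of all promoters, namely Piwil1 and Piwil2 of the piRNA pathway, Sycp1 of the synaptonemal complex and the testis factor Dmrt1. Piwil1 alone was also called with the scaling by bins. Without MEF replicate 1 the change of Piwil2 went from 1.62 to 1.00 and without MEF replicate 2 to 2.50, and that of Sycp1 went from 1.61 to 0.77 without pre-iPSC replicate 1. Levels of the 4 in pre-iPSCs stayed between 18.3 and 80.1 CPM, and none of the 24 germline genes tested for expression was called. Ddx4, a germ cell helicase, was not called, at 16.9 and 23 CPM against 37.4 and 34.6 CPM. Olfactory receptor genes, odorant receptors of the nasal epithelium, had 5 of 396 tested promoters higher, or 1.26%, against 3.07% of all, and 3 with the scaling by bins, against 1.01%. Of 1094 such promoters 396 held enough reads to be tested, and 259 of these had a change above 0, against 8688 of all 17698. A weak promoter can pass the filter on reads through the libraries of 1 cell type alone, so this count is a description. Their median was 0.22 (log2) against -0.01 for all, or -0.10 against -0.35 with the scaling by bins. Their levels were low, with medians of 12.7 and 19.7 CPM in MEFs and 17.8 and 18.3 CPM in pre-iPSCs. The 4425 promoters with the least H3K4me3 had median changes of 0.50 and 0.18 on these 2 scalings. With loess offsets, which centre low and high promoters alike, the olfactory median was -0.13, against -0.0015 for all.

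Several fibroblast genes were among the falls. In the list of fibroblast matrix and surface genes 7 of 38 promoters were lower and 0 higher, against 0.418% and 3.07% of all promoters. The median was -0.51 (log2) against -0.01 for all, or -0.87 against -0.35 with the scaling by bins, which called 10 lower, against 2.48% of all. Bgn, which encodes the matrix proteoglycan biglycan (TSS 70728974 on the X chromosome, plus strand), fell most. Its level was 65.0 and 59.2 CPM in MEFs and 12.5 and 18.3 CPM in pre-iPSCs, a log2 change of -2.02 (SE 0.39; adjusted p = 0.000816, edgeR), and its transcript went from 1834 and 1714 FPKM to 175 and 77.5 FPKM. Ogn, another small proteoglycan gene, fell from 42.4 and 41.1 CPM to 10.7 and 16.3 CPM. Col1a2, a chain of type I collagen, fell from 93.2 and 88.8 CPM to 39.2 and 24.4 CPM. Its partner Col1a1 was at 70.6 and 85.6 CPM against 41.0 and 44.7 CPM (log2 change -0.86; adjusted p = 0.0752, edgeR) and was called lower only when scaled by bins. Fap, Col3a1, Tnc and Col6a1, which encode a surface protease, a second fibrillar collagen, tenascin C and a chain of type VI collagen, completed the 7, with log2 changes between -1.02 and -1.42.

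At Col1a2 and Fap the repressive mark rose as H3K4me3 fell. H3K27me3 went from 15.4 and 25.1 CPM to 83.3 and 68.9 CPM at Col1a2 and from 10.3 and 20.9 CPM to 78.6 and 78.7 CPM at Fap. Over the whole list 15 of the 31 promoters tested for H3K27me3 were higher and 0 lower, against 5.28% and 3.15% of all promoters tested for that mark, and 28 of 38 genes were lower in expression, against 9.0% of all genes tested.

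Contractile genes of smooth muscle, which cultured fibroblasts express, had 3 of 20 promoters lower and 0 higher, against 0.418% and 3.07% of all promoters. Their median was -0.24 (log2) against -0.01 for all, or -0.59 against -0.35 with the scaling by bins. Tagln, which encodes the actin-binding protein transgelin, fell from 83.3 and 54.3 CPM to 39.2 and 24.4 CPM. Myl9, a myosin light chain gene, went from 107 and 83.9 CPM to 42.7 and 46.8 CPM, and Lmod1, an actin nucleator gene, from 70.6 and 74.0 CPM to 46.3 and 24.4 CPM. The log2 changes of Tagln and Myl9, -1.11 and -1.10, were smaller than the median of -1.18 over the 74, and that of Lmod1, just past 2-fold, was -1.56 without pre-iPSC replicate 1 and -0.64 without pre-iPSC replicate 2. Acta2, the smooth muscle actin, was at 74.8 and 51.0 CPM against 48.1 and 59.0 CPM (log2 change -0.25; adjusted p = 0.681, edgeR), a change that was 0.06 without MEF replicate 1 and -0.50 without MEF replicate 2. Its transcript dropped from 5762 and 9152 FPKM to 82.6 and 61.7 FPKM. Expression fell for 16 of the 18 genes tested, against 9.0% of all.

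Cytokine and adhesion genes of fibroblasts had 3 of 22 promoters lower and 0 higher, against 0.418% and 3.07% of all promoters. Of the 22 changes 11 were above 0, against 8688 of all 17698. Their median was 0.005 (log2) against -0.01 for all, or -0.33 against -0.35 with the scaling by bins. The falls were Vcam1, a cell adhesion receptor, from 60.7 and 59.2 CPM to 17.8 and 28.5 CPM, the chemokine gene Ccl7 from 53.7 and 62.5 CPM to 10.7 and 36.6 CPM, and Ptgs2, which encodes an enzyme of prostaglandin synthesis, from 109 and 98.7 CPM to 46.3 and 56.9 CPM. The change of Ccl7, -1.33, was -0.66 without pre-iPSC replicate 1 and -2.42 without pre-iPSC replicate 2. In the TGF-beta pathway Inhba, the activin A subunit, was the only 1 of 27 lower, against 0.418% of all promoters. It fell from 100 and 47.7 CPM to 28.5 and 20.3 CPM, a log2 change of -1.60 that was -0.95 without MEF replicate 1, while its H3K27me3 rose from 5.15 and 29.3 CPM to 55.5 and 93.5 CPM. Tgfb1, a ligand of the pathway, had H3K4me3 at 81.9 and 75.7 CPM against 69.4 and 54.9 CPM (adjusted p = 0.484, edgeR), while its H3K27me3 rose from 5.15 and 20.9 CPM to 78.6 and 108 CPM.

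Spp1, which encodes osteopontin, fell from 63.5 and 39.5 CPM to 16.0 and 14.2 CPM, and its transcript levels overlapped between the cell types. Gucy1a3 of the nitric oxide receptor, the carbonic anhydrase gene Car13, the adaptor gene Sh3bp2, the fibroblast growth factor gene Fgf7 and the prostaglandin receptor gene Ptgfr fell with log2 changes between -1.52 and -1.59. Of these, Car13 and Fgf7 were also lower in expression. Ncrna00085, named by its symbol alone, completed the 10 largest falls at -1.65.

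Of 40 mesenchymal transcription factors 0 were higher and 0 lower by edgeR, beside 3.07% and 0.418% of all promoters, so the absence of calls does not set this list apart. Their median was 0.12 (log2) against -0.01 for all, or -0.23 against -0.35 with the scaling by bins. In expression 19 of 33 genes were lower, against 9.0% of all, and 8 of 34 promoters had more H3K27me3, against 5.28% of all. Twist1 was at 67.8 and 90.5 CPM against 48.1 and 69.1 CPM, Snai1 at 48.0 and 54.3 CPM against 67.7 and 65.1 CPM, and Zeb1 at 76.3 and 42.8 CPM against 55.2 and 61.0 CPM. All 3 drive the mesenchymal state, and only Twist1 and Snai1 were called lower in expression. The fibroblast surface marker Thy1 was at 76.3 and 57.6 CPM against 53.4 and 50.8 CPM. Among these 40 promoters 77.5% were rich in CpG, against 26.3% of the matrix genes and 55.3% of all promoters tested.

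**Figure D3:**
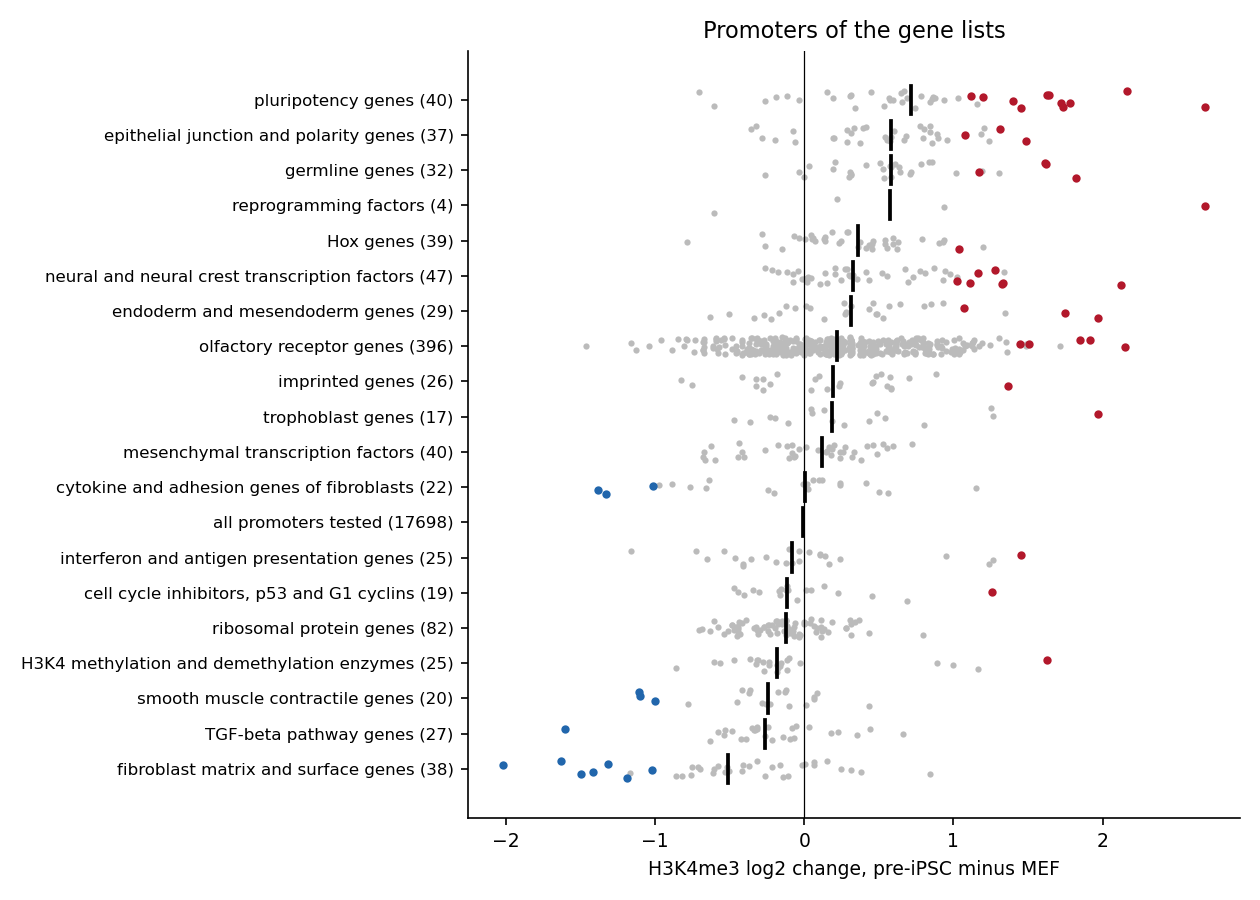
H3K4me3 log2 change, pre-iPSC minus MEF, of each tested promoter of the 19 gene lists, with the number tested in brackets; red points were called higher, blue points lower, and black bars are medians. The highest median is that of the pluripotency genes, 0.72, and the lowest that of the fibroblast matrix and surface genes, -0.51, beside -0.01 for all promoters tested, for which points are left out.

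The remaining lists had at most 1 called promoter each, a share near the 3.07% higher and 0.418% lower of all promoters where 1 was called. Oas2, an antiviral synthetase gene, was higher among 25 interferon and antigen presentation genes, and the imprinted transporter gene Slc22a18 among 26 imprinted genes. The change of Slc22a18, 1.37, was 0.74 without MEF replicate 1, 2.29 without MEF replicate 2 and 0.89 without pre-iPSC replicate 2. Smyd1, a muscle methyltransferase gene, was higher among 25 enzymes of H3K4 methylation and demethylation. Cdkn1a, the p21 inhibitor of the cell cycle, rose from 33.9 and 37.8 CPM to 76.6 and 95.6 CPM and was the 1 called among 19 cell cycle inhibitors, p53 and G1 cyclins, while Cdkn2a, of the Ink4a/Arf locus, was at 106 and 83.9 CPM against 99.7 and 75.2 CPM. None of these 4 rises was called with the scaling by bins. The 82 ribosomal protein promoters, of which 91.5% were rich in CpG, had 0 called in either direction, beside 3.07% higher and 0.418% lower of all promoters, and the housekeeping gene Actb was at 72.0 and 70.8 CPM against 73 and 61.0 CPM.

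The signal was also averaged by distance from the TSS. Averaged per promoter in 100-bp bins, reads scaled to 1000000 reads in calls peaked at 0.144 and 0.140 in pre-iPSCs over the 543 rising promoters, 1.90 and 1.79 times the mean of the flanks beyond 2000 bp. Over all tested promoters the peak in the bin starting 100 bp after the TSS was 3.27 and 2.32 times the flank in the same libraries. The flanks of the rising promoters held 0.076 and 0.078 reads on this scale in pre-iPSCs against 0.051 and 0.052 in MEFs. At the 74 falling promoters MEFs showed a peak of 0.416 and 0.309 downstream of the TSS, 3.60 and 3.42 times the flank, and pre-iPSCs had at most 0.107 and 0.097. These classes were chosen on the reads within 1000 bp, and the signal steps at that distance, so the profiles are a description and the width of the signal is not read from them.

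**Figure D4:**
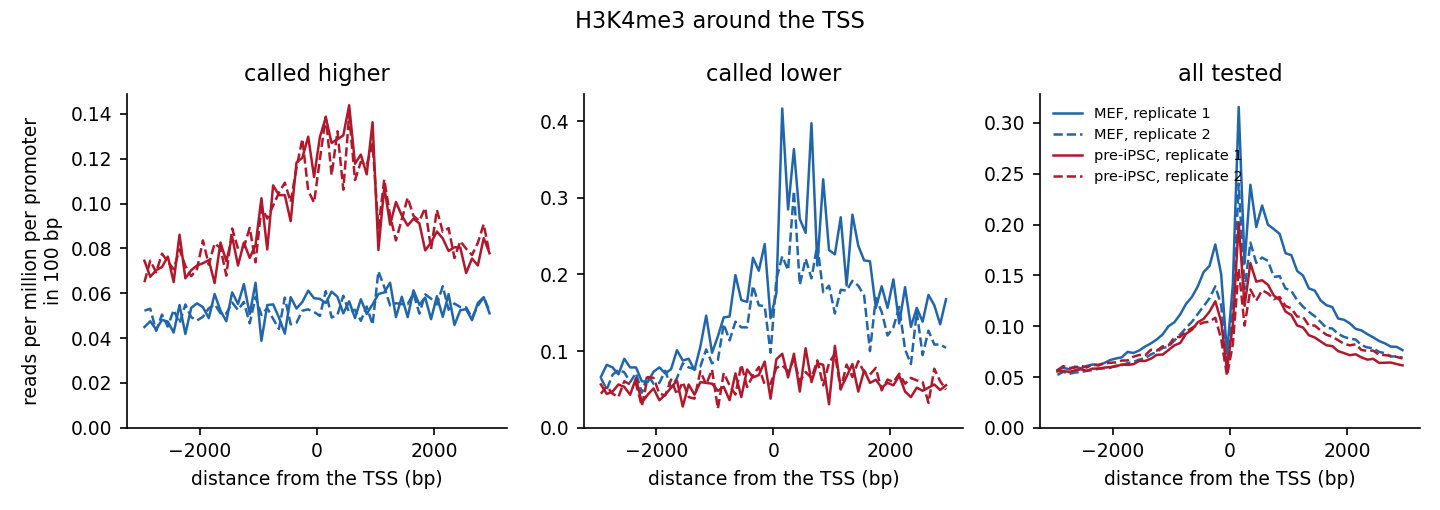
Mean H3K4me3 reads per promoter, scaled to 1000000 reads in calls, in bins of 100 bp from -3000 to 3000 bp around the TSS, for promoters called higher (543), called lower (74) and all tested (17698), in both MEF (blue) and both pre-iPSC (red) libraries. Vertical scales differ; pre-iPSC signal at the rising promoters tops out at 0.144 and steps at the 1000 bp within which reads chose the promoters, and MEF signal at the falling promoters peaks at 0.416 just downstream of the TSS.

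The mark was also read as present or absent, at a threshold of 1 RPKM (reads per kilobase, scaled to 1000000 uniquely mapped reads) within 500 bp of the TSS. Of the 543 rising promoters 7.73% and 2.58% were marked in MEF replicates 1 and 2 and 40.9% and 38.1% in the pre-iPSC libraries. Unmarked in both MEF and both pre-iPSC libraries were 258 of the 543, and 7675 of all 20156 promoters. The 74 falling promoters went from 98.6% and 81.1% marked to 5.41% in each pre-iPSC library. Both classes were chosen on reads of these same libraries within 1000 bp, so their shifts in H3K4me3 state are a description. None of the 74 carried H3K27me3 above that threshold in any of the 4 H3K27me3 libraries. Of all promoters 2.09% and 3.22% did in MEFs and 2.10% and 1.83% in pre-iPSCs, so the absence does not set the 74 apart. Of the rising promoters 9.94% and 13.1% did in MEFs and 8.47% and 7.92% in pre-iPSCs. Over all 20156 promoters 56.5% and 47.7% were marked in MEFs and 40.7% and 30.9% in pre-iPSCs, and 1538 were marked in both MEF libraries and neither pre-iPSC library, against 179 the other way. This scale uses no TMM, and it gives more losses than gains.

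Expression, a readout that did not choose these promoters, nearly always moved the same way as the mark where both were called. Of the 543 rising promoters 234 belonged to genes with enough transcript, and 127 of these were higher and 3 lower in expression, against 7.39% and 9.0% of all genes tested (limma, adjusted p below 0.05 and 2-fold). The genes of the other 309 had too little transcript to be tested. A gene scarcely transcribed in MEFs is tested only if pre-iPSCs or iPSCs express it, and it can then hardly be called lower. The shares of the rising promoters are therefore a description. Of the 66 falling promoters tested 46 were lower and 0 higher. The 179 rises shared by both scalings had 66 of 95 genes higher. The 3 genes with more mark and less transcript, named after their values were seen, were Alx1, Aqp5 and Gp1bb, of which Gp1bb alone was also higher in H3K4me3 with the scaling by bins. Conversely, of the 896 genes with higher expression and a tested promoter 14.2% had more H3K4me3, against 3.07% of all promoters tested. Of the 1100 with lower expression 4.18% had less, against 0.418%. Most changes of transcript thus came without a called change of the mark.

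Transcripts of 328 of the 543 rising genes, 60.4%, were below 1 FPKM in all 4 RNA libraries, against 32.8% of all genes with a tested promoter. Among the 4425 promoters with the least H3K4me3 the share was 77.1% of the rising against 82.3% of all, and among the next 4424 it was 52.3% against 34.7%. Of the 74 falling genes 66 had at least 1 FPKM in both MEF libraries, and 47 still had that in both pre-iPSC libraries. Across the 12203 genes tested for both, the log2 changes of H3K4me3 and expression had a Pearson r of 0.37 and a Spearman rho of 0.27. Genes are not independent replicates, and each axis rests on 2 libraries of each cell type.

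**Figure D5:**
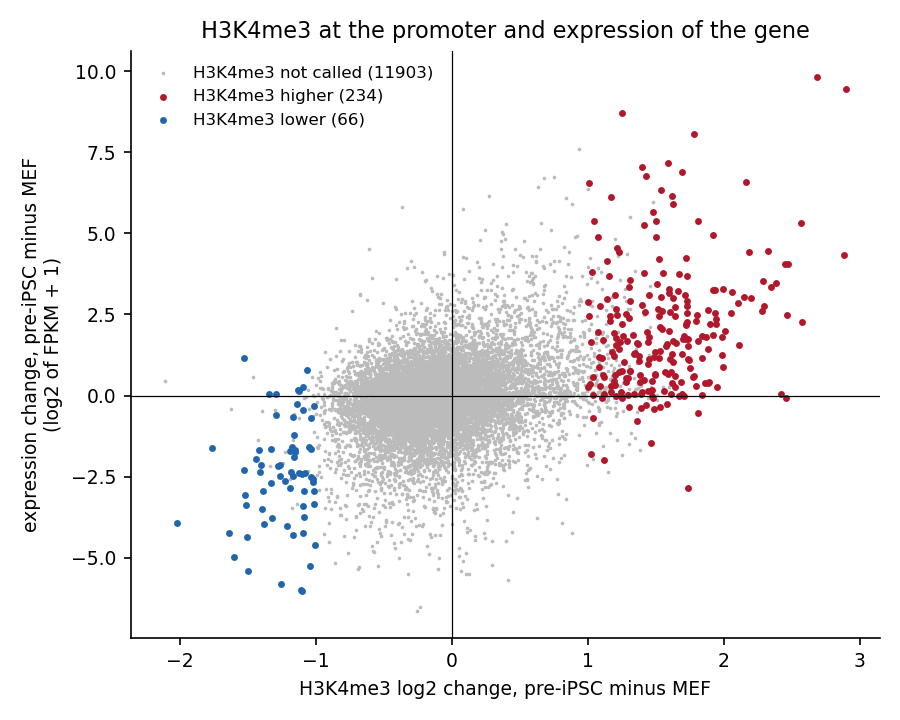
H3K4me3 log2 change at the promoter against the change in expression of its gene (log2 of FPKM + 1), both pre-iPSC minus MEF, for the 12203 genes tested for both. Red points are the 234 genes with a called rise in H3K4me3, of which 127 were called higher in expression, and blue points the 66 with a called fall, of which 46 were called lower.

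H3K27me3, the mark of Polycomb repression, mostly moved against H3K4me3 where both were called. It was lower at 48 and higher at 7 of the 522 rising promoters tested, and higher at 27 and lower at 0 of the 56 falling promoters tested, against 3.15% lower and 5.28% higher of all promoters tested for H3K27me3. Its median log2 change was -0.23 over the former and 1.5 over the latter, beside -0.01 over all promoters. The density of H3 was not called as changed at any of 19560 promoters by edgeR, with 350 at an unadjusted p below 0.05, or by DESeq2, with 196. Pre-iPSC replicate 1 stood apart in H3, with 3.13% of its reads in promoter windows against 1.21% to 1.26% in the other 3 libraries, and without replicate 2 of the pre-iPSCs 1116 promoters were called higher in H3 and 3407 lower. The median H3 change was 0.19 at rising promoters and 0.30 at falling ones (log2), against 0.04 over all.

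The promoters called with TMM over promoters held fewer CpG than others at the median. In the 1000 bp around the TSS, rising promoters held a median of 22 CpG dinucleotides and falling ones 32.5, against 53 over all promoters tested. By a common definition, a G and C content of at least 50% and an observed over expected CpG ratio of at least 0.6, 19.9% of rising and 29.7% of falling promoters were CpG-rich, against 55.3% of all tested. The median ratio was 0.30, 0.46 and 0.66 in these groups. Among the 4425 promoters with the least H3K4me3 the share was low throughout, 3.33% of the rising against 3.64% of all, while among the next 4424 it was 28.2% against 51.5%. G and C content alone hardly differed, with medians of 55.6%, 54.7% and 57.3%. Of the 179 rises shared by both scalings 14.0% were CpG-rich. CpG was not counted over the 437 falls of the scaling by bins. Of those falls, 151 lay among the 4424 promoters between 58.3 and 75.2 CPM and 125 among the 4425 with the most H3K4me3. Of all promoters in these classes 79.4% and 86.6% were CpG-rich.

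Short motifs were sought on both strands from 250 bp before to 50 bp after each TSS. The letters CACCTG, an E-box, were present at 32.8% of rising and 14.9% of falling promoters, against 19.6% of those tested and 19.2% of all 20156. Among CpG-poor promoters alone the shares were 34.0% of the rising and 23.2% of the tested, and among the 4425 promoters with the least H3K4me3 36.2% and 24.7%. TATAAA was found at 8.47%, 14.9% and 9.98% of rising, falling and tested promoters, and CCAAT at 29.7%, 29.7% and 37.1%. The AP-1 letters TGANTCA were at 8.1%, 10.8% and 5.84%, the octamer ATGCAAAT at 2.76%, 4.05% and 1.58%, and the CArG box at 1.1%, 2.7% and 1.24%. Over all 20156 promoters the last 5 were at 12.7%, 38.1%, 6.8%, 1.7% and 1.36%. In CpG-poor promoters the rising and tested shares were 9.66% and 15.7% for TATAAA, 28.3% and 37.3% for CCAAT and 8.74% and 8.93% for TGANTCA. They were 2.99% and 1.83% for ATGCAAAT and 1.38% and 1.43% for the CArG box. These are matches of letters only.

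By chromosome the median change lay between -0.08 and 0.07 (log2) on every autosome. On the X chromosome it was -0.26, with 2 of 494 tested promoters higher and 6 lower, among them Bgn. These were 0.405% and 1.21%, against 3.07% and 0.418% of all promoters tested. Medians of H3K27me3 and H3 on the X were -0.50 and -0.56. The X held 3.01% and 3.70% of the H3K4me3 reads in calls of the MEF libraries and 2.32% and 2.33% of those of the pre-iPSC libraries, and the part of this difference in the X-linked falls was not tested. A new fit without X and Y gave 500 rises and 73 falls. Of the 543 rises only 2 lay on the X and 0 on the Y, so most of the difference in rises lies on other chromosomes.

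The 11 MEF markers summed to 4445 and 4331 FPKM in MEFs and to 327 and 102 FPKM in pre-iPSCs, with none listed at 0. Of the sums in MEFs Col1a1 made up 2144 and 1614 FPKM and Col1a2 1206 and 1761 FPKM. In expression 9 of the 11 were called lower, while Lum and Dcn, whose values overlapped between the cell types, were not called. Feeder cells and remaining fibroblast transcription cannot be told apart, and fewer cells of a type cannot be told from less mark per cell in such bulk samples. The 9 pluripotency markers summed to 0.023 and 0.904 FPKM in MEFs and 633 and 3524 FPKM in pre-iPSCs. Of the latter Pou5f1 made up 378 and 3184 FPKM and Tdgf1 228 and 333 FPKM. In pre-iPSCs 2 and 3 of the 9 were listed at 0, and Nanog, Zfp42, Esrrb, Dppa3 and Lin28a were at or below 1.24 FPKM. The 5 epithelial markers summed to 4.93 and 5.79 FPKM in MEFs and 76.5 and 34.2 FPKM in pre-iPSCs, with 3 called higher in expression and Krt18 lower. The 3 blood markers summed to at most 0.33 FPKM, and the 3 endothelial ones to 1.97 and 0.152 FPKM in MEFs and 2.37 and 2.02 FPKM in pre-iPSCs.

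Replicates correlated with a Pearson r of 0.90 between the MEF libraries and 0.82 between the pre-iPSC libraries in log2 CPM, and 0.77 to 0.79 between the cell types. The calls rested on few reads, with a median of 11 and 12 reads in MEFs and 28 and 26 in pre-iPSCs at the rising promoters. Leaving out MEF replicate 1 gave 81 rises and 15 falls, leaving out pre-iPSC replicate 1 gave 202 and 18, and leaving out pre-iPSC replicate 2 gave 175 and 29. DESeq2 called 31 rises, all among the 543, and 0 falls, with 1201 promoters at an unadjusted p below 0.05.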

How the data were processed

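Mononucleosomes were immunoprecipitated with an antibody to H3K4me3 and sequenced. Alignment by the authors used Bowtie 1.0.1 against mm9, retaining unique reads with few mismatches, each moved 73 bp to its nucleosome centre, and GeneTrack called the nucleosomes. Deposited for each call is the count of its reads, and reads outside calls were not analysed here. Expression values are the deposited FPKM that the authors computed with TopHat2 2.0.4 and Cufflinks 2.0.2, as 1 table for each replicate. Calls of the 4 H3K4me3 libraries held 12007350 to 13146349 reads, of which 487964 to 724418 lay in promoter windows.

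The call's start plus 73 bp was taken as its centre and assigned to windows of 1000 bp on each side of the TSS. Of 20156 promoters 2266 share a group of TSSs within 2000 bp, so their windows overlap. Counts were tested with edgeR 4.0.16 (filterByExpr, TMM, robust quasi-likelihood, Benjamini-Hochberg) over all promoters, with library size the reads in promoter windows. H3K27me3 and H3 were treated alike. Log2(FPKM + 1) was tested with limma 3.58.1 (trend, table as a term) for genes averaging at least 0.5 FPKM, a scale that understates the change of low genes. A call needed an adjusted p below 0.05 and 2-fold. The methods call the 2 replicates biological, but neither they nor the labels say which cultures or clones they came from, so p-values measure the spread between these samples. Simulated counts for 17698 promoters returned 22, 48 and 50 of 50 rises of 2-fold, 3-fold and 4-fold and 37 of 50 falls of 4-fold, with 6 false calls. Unchanged promoters had 1 mean in all cell types there, without the shift between scalings or the drift with level. The 6 false calls therefore do not measure calls that depend on the scaling.

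Genes were named by a rule: the 10 largest rises and falls among called promoters whose groups did not overlap and whose higher group averaged at least 10 CPM, up to 4 called members of each of 19 lists by size of change, and a panel of 24 genes. Where a list had more than 4, the rest were named after their values were seen, as were Alx1, Aqp5, Gp1bb and Hoxb5. The promoters, lists and genes were chosen with earlier results of these data known. Sequences and motifs were read from the mm9 genome at the counted TSSs, since the promoter table given is of another build. Alternatives covered scaling, DESeq2 1.42.0, filters, windows, thresholds, the replicate block and leaving out each library. The loess offsets and the calls shared by 2 scalings were chosen after seeing the data. Software was edgeR, limma and DESeq2 under R 4.3.3, with matplotlib 3.10.9, scipy 1.17.1, pandas 2.3.3 and numpy 2.4.6 under Python 3.11.15. Some called members of the lists are not reported here.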

Additional observations from a re-analysis of the deposited data

How the results depend on the processing

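At 543 rises and 74 falls, calls moved by over 1.5 times in these cases. Scaling to the uniquely mapped reads without TMM gave 230 and 878, and TMM over 10-kb bins 179 and 437. Loess offsets, which centre low and high promoters alike, gave 281 and 125, and the calls shared by both TMM scalings were 179 and 74. DESeq2 gave 31 and 0. Windows of 500 bp gave 249 rises. Falls reached 153 with no fold threshold and with a 1.5-fold threshold. Leaving out 1 library gave 81 to 422 rises and 15 to 93 falls. The cause of these differences was not tested, beyond the smaller number of libraries in the last. Each fit without a library assumes that the remaining one of that cell type varies as the rest do. Called without each library in turn were 42 of the rises and 2 of the falls. RLE size factors, no filter, windows of 2000 bp, calls of at least 2 reads, 4 libraries only, 1 promoter per TSS group and no X or Y stayed within 1.5 times.

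For H3K27me3, DESeq2 gave 35 higher and 19 lower against 549 and 328, no filter gave 361 higher, and leaving out 1 library gave 200 to 275 higher and 136 to 221 lower. For H3 the counts were 0 and 0, and leaving out 1 library gave 0 to 1116 higher and 0 to 3407 lower. For expression, no filter gave 586 higher and 658 lower against 916 and 1116, and leaving out 1 library gave 607 to 1240 higher and 465 to 1672 lower. Same-numbered libraries showed little shared deviation. Correlations were -0.04 between MEFs and pre-iPSCs, 0.0068 between MEFs and iPSCs and 0.12 between pre-iPSCs and iPSCs. With few reads per promoter this check cannot exclude a shared culture or clone. With a replicate block 553 rises and 75 falls were called.

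Of the 54 named promoters called, 37 were also called with TMM over 10-kb bins, 10 with DESeq2, 19 without MEF replicate 1, 24 without pre-iPSC replicate 1 and 25 without pre-iPSC replicate 2. Depth limits weak promoters most, since 1 CPM is less than 1 read. A p that misses the threshold there does not show that the mark is unchanged.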

Other observations

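Some promoters outside the naming rule were picked after their values were seen. Cwc22, which encodes a splicing factor, had the most negative log2 change of all tested promoters, -2.11, but was not called (adjusted p = 0.335, edgeR), although it was called lower with TMM over 10-kb bins. Its MEF libraries stood far apart at 73.4 and 286 CPM, against 51.6 and 28.5 CPM in pre-iPSCs. Tcfec, a transcription factor gene, was likewise called lower only with the second of these 2 scalings, at 19.8 and 24.7 CPM against 8.90 and 2.03 CPM, the last of which is 1 read.

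Tek, the angiopoietin receptor of endothelial cells, was called higher in H3K4me3 at a log2 change of 2.20, and its transcript went from 0.021 and 0.0325 FPKM to 12.8 and 3.94 FPKM. Laptm5, a lysosomal membrane gene of blood cells, was called higher at a log2 change of 2.32, with 2.93 and 0.82 FPKM in MEFs and 40.4 and 83.3 FPKM in pre-iPSCs. Of the 3 blood and 3 endothelial markers none was called in H3K4me3 by edgeR, though Hba-a1 held too few reads to be tested. Pecam1 was called higher in expression. Krt14, a basal epithelial keratin gene, was called higher at a log2 change of 2.00, although its pre-iPSC libraries differed, with 21.4 and 67.1 CPM.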
